A study of Bos taurus with 8 samples.

Results

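Mitochondrial protein import genes were taken as the rows whose symbol begins with TIMM, TOMM, CHCHD, SAMM, MTX, PMPC or GRPEL. There were 36 such genes among 21258 features, and they lie on 23 chromosomes. Membership follows the symbol alone, although the set was proposed with earlier results of these data known. RNA was measured by sequencing in pools of 8 Holstein cattle embryos collected at the eight-cell stage. Embryos made by in vitro fertilisation formed the IVF group, with 3 libraries. Cloned embryos made by somatic cell nuclear transfer, in which the nucleus of a body cell replaces that of an egg, formed the SCNT group, with 3 libraries. Cloned embryos with KDM4E overexpression formed the KDM4E-SCNT group, with 2 libraries. KDM4E is a histone demethylase that acts on methylated lysine 9 of histone H3. The labels do not say how it was overexpressed, which donor cells were used, or at what hour embryos were collected, and SCNT is the control of both other groups. No label states whether replicate pools were drawn from different embryo batches, so p-values measure only the spread between these libraries, which may be technical.

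Most mitochondrial proteins are encoded in the nucleus, made in the cytosol and imported. Nearly all of them enter through the translocase of the outer membrane (TOM), where TOMM20, TOMM22 and TOMM70 act as receptors, TOMM40 forms the channel, and TOMM5 and TOMM6 are small subunits. Proteins with a cleavable presequence pass on to the TIM23 translocase of the inner membrane and are drawn into the matrix by a motor built on the chaperone mtHsp70, whose nucleotide exchange factors are GRPEL1 and GRPEL2, and the PMPCA and PMPCB peptidase then removes the presequence. Metabolite carriers are escorted across the intermembrane space by the small TIM chaperones and inserted by the TIM22 translocase, whereas barrel-shaped outer membrane proteins are inserted by the sorting and assembly machinery (SAM) of SAMM50 and the metaxins. CHCHD4 oxidises and so traps small cysteine-rich proteins in the intermembrane space, among them several CHCHD proteins. The mitochondria of a fertilised embryo at cleavage stages are inherited from the egg.

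Values are FPKM, fragment abundance scaled by the submitters to transcript length and library size, so that levels may be compared between genes per unit length. The files give no counts, and the depth is unknown. Between 10975 and 13050 features reached 1 FPKM in a library. The feature LOC524768, described in the files as KDM4C-like and whose identity with KDM4E is uncertain, lay at 88.3 to 109 FPKM in IVF, at 25.4 to 33.9 in SCNT and at 102 and 206 in KDM4E-SCNT. The 7 markers of oocytes and early embryos summed to 2300 to 3692 FPKM in IVF, 307 to 334 in SCNT and 1152 and 2053 in KDM4E-SCNT. All 7 were called higher in IVF and in KDM4E-SCNT than in SCNT. Of all features, 34.9% were called higher in IVF and 21.6% in KDM4E-SCNT than in SCNT. The 9 markers of fibroblasts summed to 12.01 to 38.8 FPKM in IVF, 94.7 to 156 in SCNT, and 52.8 and 302 in KDM4E-SCNT, with none at 0 in every library. Of the 7 tested, SPARC, LGALS1 and DCN (42.9%) were called lower in IVF than in SCNT, beside 23.6% of all features. COL1A1, COL1A2, VIM and LUM were not called in that comparison. In KDM4E-SCNT, VIM, LUM and SPARC (42.9%) were called higher than in IVF, beside 5.9% of all features, and the other 4 were not called. Against SCNT only VIM (14.3%) was called higher in KDM4E-SCNT, beside 21.6% of all features. The 7 cumulus markers summed to 94.96 to 159, 16.1 to 24.5, and 45.4 and 93.1 FPKM, with FSHR, CYP19A1 and AMH under 1 FPKM in every library. HAS2 and STAR were called higher in IVF than in SCNT, whereas TNFAIP6 was called lower. The 3 sperm markers found of 5 summed to 4.87 to 7.14, 18.4 to 37.2, and 5.66 and 6.40 FPKM. CRISP2 was called lower in IVF than in SCNT, whereas ZPBP was called higher and TNP1 was not called. The 5 blood markers summed to 11.96 to 18.0, 37.1 to 70.1, and 28.0 and 43.2 FPKM, with HBB under 1 FPKM in every library. Yet 3 of the 4 tested (75.0%) were called higher in IVF than in SCNT, beside 34.9% of all features, and HBA was called lower. Transcripts of the mitochondrial genome itself took 6.08% to 7.11% of FPKM in IVF, 7.54% to 10.6% in SCNT and 11.0% and 11.5% in KDM4E-SCNT. These values move with the groups, and their part in the differences below was not tested.

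The import genes spanned more than 3 orders of magnitude in level. TOMM6 led in IVF, at 2795 ± 255 FPKM (SD, n = 3), and in KDM4E-SCNT, at 2298 ± 149 FPKM (SD, n = 2). In SCNT the leading gene was TOMM5, at 1440.4 ± 326 FPKM (SD, n = 3), with TOMM6 next at 1160 ± 175, and the libraries of these 2 genes overlapped. CHCHD2 was the second gene in IVF and the third in the other groups. Of the 36 genes, 31 reached 1 FPKM in every library, and TOMM5, TOMM6, TIMM8A, TIMM23, CHCHD2 and CHCHD7 were at 100 FPKM or more in every library. The 7 genes under 10 FPKM in every library included the channel TOMM40, the SAM core SAMM50 and the peptidase subunit PMPCA. CHCHD10 lay between 0 and 1.07 FPKM and failed the filter on low values, which left 35 genes for testing. Together the import genes took 0.689% to 0.757% of all FPKM in IVF, 0.809% to 0.925% in SCNT, and 0.790% and 0.674% in KDM4E-SCNT.

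**Figure D1:**
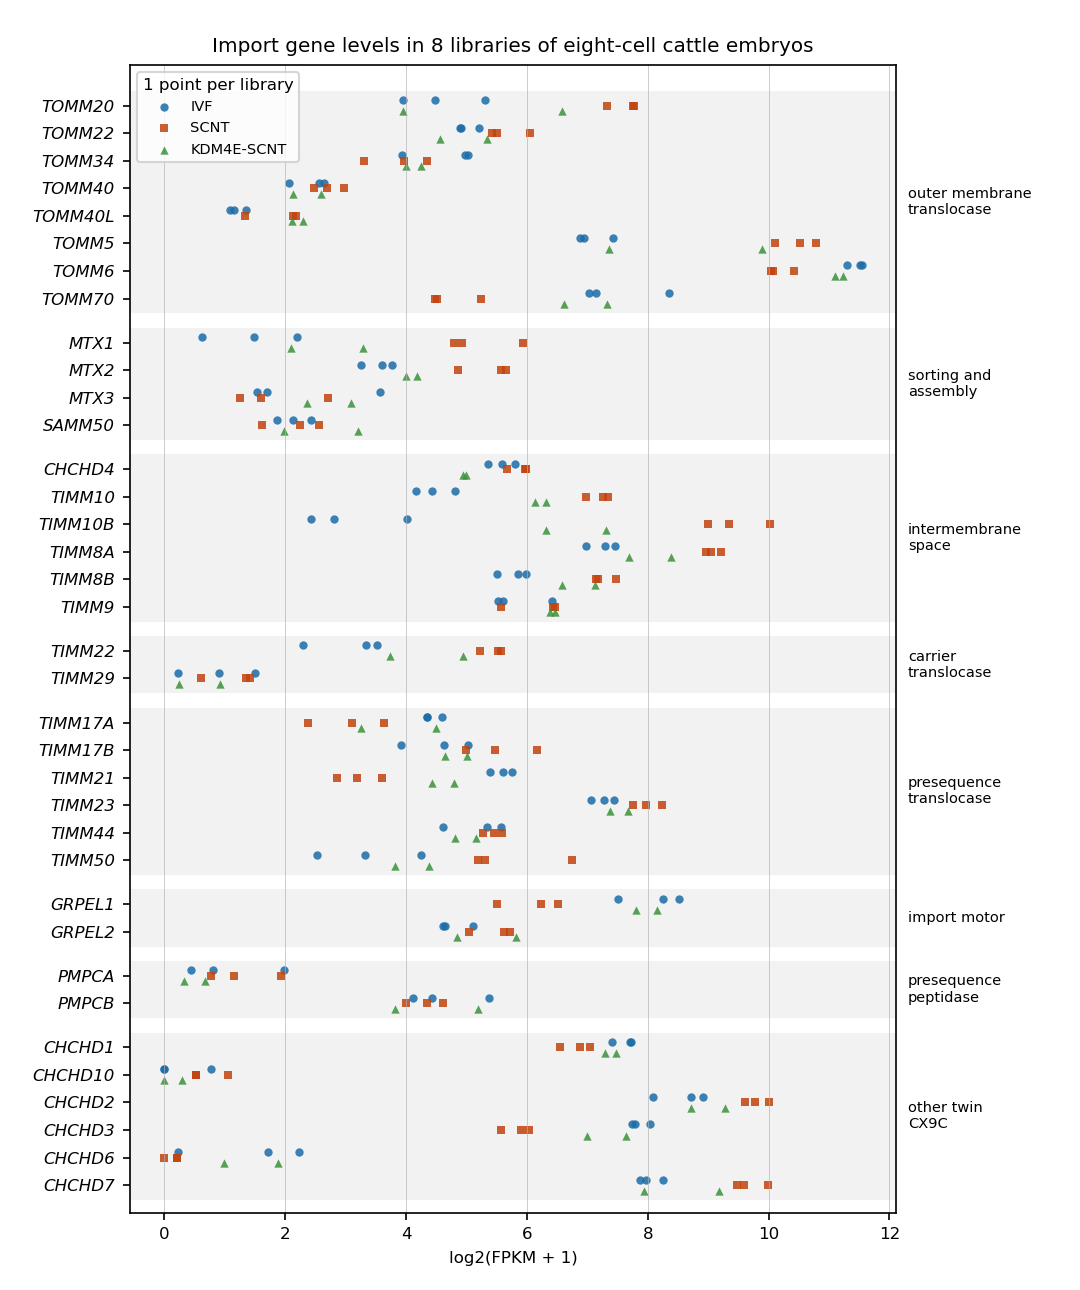
Level of each import gene, as log2(FPKM + 1) on the horizontal axis, with genes grouped by role on the vertical axis and 1 point per library in the colour and shape of its group. TOMM6 and TOMM5 reach the highest levels, and TIMM10B shows the widest separation, from 15.2 FPKM in the highest IVF library to 512 FPKM in the lowest SCNT library.

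The first comparison, IVF against SCNT, asks how cloned embryos without KDM4E overexpression differ from fertilised ones. Most import genes that differed were lower in IVF, that is, higher in SCNT. They included the small TIM chaperones TIMM10B, TIMM10, TIMM8A and TIMM8B and the metaxins MTX1 and MTX2. The receptor TOMM20, the small subunit TOMM5 and the inner membrane subunits TIMM22 and TIMM50 were also among them. A smaller set was higher in IVF, led by the receptor TOMM70, the TIM23 subunit TIMM21, the cristae protein CHCHD3 and the exchange factor GRPEL1. Of 35 genes tested, 14 (40.0%) were lower and 8 (22.9%) were higher in IVF, at a limma adjusted p under 0.05. Among all features tested, 23.6% were lower and 34.9% were higher. The median log2 difference was -0.30 over the import genes and 0.39 over all features, on the log2(FPKM + 1) scale used for every difference here. Libraries of the groups did not overlap for 22 import genes (62.9%), against 64.4% of all features. The scaling moves the background: with median-ratio scaling the median over all features was 0.10, 48.9% rather than 59.7% of all calls were in the higher direction, and 6 import genes were higher and 18 lower. Without SCNT replicate 3 the number of import genes called higher was 5, and over all features 4281 were called higher rather than 5182. In pools of whole embryos, fewer cells of a type and less RNA per cell cannot be told apart.

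In the outer membrane translocase, the receptor TOMM70 and the small subunit TOMM6 were higher in IVF, and the receptor TOMM20 and the small subunit TOMM5 were lower. TOMM70, the receptor for carriers and other proteins with internal signals, lay at 140.1, 324 and 129 FPKM in IVF, at 21.4, 36.9 and 21.9 in SCNT, and at 97.4 and 158 in KDM4E-SCNT. Every IVF library exceeded every SCNT library, with a log2 difference of 2.75 ± 0.38 (SE, adjusted p = 7.05e-05), or 6.74-fold. TOMM20, the receptor for presequences, was low in the fertilised embryos, at 38.6, 14.5 and 21.2 FPKM, and high in SCNT, at 216, 159 and 219. The KDM4E-SCNT libraries were far apart for this gene, at 94.2 and 14.4 FPKM. Its difference between IVF and SCNT was -3.04 ± 0.54 (adjusted p = 0.000436), opposite in sign to that of TOMM70.

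TOMM5 was at 172, 117 and 122 FPKM in IVF, at 1463, 1755 and 1104 in SCNT, and at 943 and 163 in KDM4E-SCNT. It was thus 10.4-fold lower in IVF than in SCNT (log2 difference -3.38 ± 0.48, adjusted p = 8.71e-05). TOMM6 was at 2503, 2972 and 2909.5 FPKM in IVF, at 1072, 1361 and 1046 in SCNT, and at 2193 and 2404 in KDM4E-SCNT. It was 2.42-fold higher in IVF (1.27 ± 0.22, adjusted p = 0.000319), so the 2 small subunits moved oppositely. TOMM6 made up 85.4% to 89.6% of the summed FPKM of the 8 TOMM genes in IVF, 37.4% to 42.6% in SCNT, and 65.0% and 85.7% in KDM4E-SCNT. The share of TOMM5 was 3.36% to 5.87% in IVF, 44.9% to 52.1% in SCNT, and 27.9% and 5.82% in KDM4E-SCNT. The summed level of the TOMM genes nonetheless overlapped between groups. It ranged from 2920.4 to 3482 FPKM in IVF, whereas SCNT ranged from 2458 to 3371. These sums and shares follow the symbols, so they include the cytosolic cochaperone TOMM34. They leave out a feature described as TOM7, a small TOM subunit, which lay at 219 to 308 FPKM in IVF. The log2 ratio of TOMM5 to TOMM6, looked at after the values were seen and therefore not tested, was -3.86, -4.65 and -4.56 in IVF, 0.45, 0.37 and 0.08 in SCNT, and -1.22 and -3.87 in KDM4E-SCNT.

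The channel genes were low and were not called. TOMM40 lay at 5.25, 3.17 and 4.92 FPKM in IVF, 6.81, 4.54 and 5.49 in SCNT, and 5.03 and 3.36 in KDM4E-SCNT. Its paralogue TOMM40L lay at 1.13, 1.56 and 1.23 FPKM in IVF, 1.52, 3.52 and 3.37 in SCNT, and 3.90 and 3.34 in KDM4E-SCNT. The span of TOMM40L overlaps that of NR1I3, a nuclear receptor gene at 0 to 0.67 FPKM. The central receptor TOMM22 (-0.66 ± 0.31, adjusted p = 0.0813) and the cytosolic cochaperone TOMM34 (0.77 ± 0.38, adjusted p = 0.0962) were not called either. With median-ratio scaling TOMM22 (-1.10, adjusted p = 0.00841) and TOMM40L (-0.96, adjusted p = 0.0338) were called lower in IVF, as TOMM40L was with quantile normalization, and without IVF replicate 2 TOMM34 was called higher (1.12, adjusted p = 0.0191).

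In the sorting and assembly machinery MTX1 and MTX2 were lower in IVF, while the third metaxin, MTX3, and the core subunit were not called. MTX1 was at 3.58, 0.54 and 1.78 FPKM in IVF, at 60.4, 26.6 and 29.4 in SCNT, and at 8.81 and 3.26 in KDM4E-SCNT. IVF and SCNT did not overlap, and their difference was -3.79 ± 0.48 (adjusted p = 3.48e-05), or 13.8-fold, and -4.46 with a pseudocount of 0.1. MTX2, its partner on the cytosolic face, was at 8.49, 11.1 and 12.6 FPKM in IVF, 49.0, 28.1 and 46.5 in SCNT, and 17.2 and 15.1 in KDM4E-SCNT (-1.82 ± 0.32, adjusted p = 0.000351). MTX3, a less studied metaxin, ranged widely within IVF, at 1.90, 10.8 and 2.25 FPKM, and within SCNT, at 1.37, 2.04 and 5.53, with 4.14 and 7.54 in KDM4E-SCNT (IVF minus SCNT 0.41 ± 0.55, adjusted p = 0.529). SAMM50, the barrel that inserts other barrel proteins, had nearly equal means, 3.45 ± 0.87 FPKM in IVF and 3.55 ± 1.42 in SCNT (SD, n = 3 each). The standard error of its log2 difference was 0.41.

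The small TIM chaperones held the largest difference of the set. TIMM10B, a chaperone associated with the TIM22 translocase (chromosome 15, 47185421 to 47186287, build UMD3.1), was at 4.35, 5.97 and 15.2 FPKM in IVF, at 512, 1038 and 651 in SCNT, and at 157 and 78.2 in KDM4E-SCNT. The 3 groups were fully separated, with KDM4E-SCNT between the others. The IVF to SCNT difference was -6.38 ± 0.43 (adjusted p = 5.63e-07), or 83.2-fold. Its span overlaps that of APBB1, which was listed at 0 to 0.26 FPKM. TIMM10, which with TIMM9 forms the main carrier chaperone, showed the same order at 20.5, 16.9 and 27.1 FPKM in IVF, 151, 125 and 161 in SCNT, and 78.8 and 69.4 in KDM4E-SCNT (-2.72 ± 0.28, adjusted p = 7.70e-06).

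TIMM8A, a chaperone whose loss in humans causes the Mohr-Tranebjaerg deafness-dystonia syndrome, lies on chromosome X. It was at 156, 125 and 176 FPKM in IVF, at 531, 501 and 594 in SCNT, and at 332 and 206 in KDM4E-SCNT (IVF minus SCNT -1.83 ± 0.27, adjusted p = 9.53e-05). The file describes this feature only as an uncharacterized protein, so its name rests on the symbol. TIMM8B, on chromosome 15 with TIMM10 and TIMM10B, was at 62.3, 56.9 and 44.2 FPKM in IVF, 143, 139.9 and 178 in SCNT, and 139 and 94.4 in KDM4E-SCNT (-1.48 ± 0.27, adjusted p = 0.000571). TIMM9, the partner of TIMM10 in the same complex, was not called, with values of 44.8, 84.6 and 47.9 FPKM in IVF and 87.3, 46.5 and 85.01 in SCNT (-0.30 ± 0.34, adjusted p = 0.448). CHCHD4 was not called in this comparison (-0.29 ± 0.27, adjusted p = 0.358), but it was with median-ratio scaling (-0.73, adjusted p = 0.0341).

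Of the TIM22 translocase, the channel subunit TIMM22 was lower in IVF. It was at 10.5, 3.88 and 9.13 FPKM in IVF, at 44.9, 36.4 and 46.5 in SCNT, and at 29.6 and 12.3 in KDM4E-SCNT, and the IVF to SCNT difference was -2.39 ± 0.40 (adjusted p = 0.000277). TIMM29, described in the file as a hypothetical protein and known as a scaffold of human TIM22, lay at 0.88, 1.82 and 0.17 FPKM in IVF, 1.55, 0.52 and 1.67 in SCNT, and 0.18 and 0.89 in KDM4E-SCNT, and was not called.

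Of the 6 TIM23 translocase genes 2 (33.3%) were higher and 3 (50.0%) lower in IVF, beside 34.9% and 23.6% of all features. TIMM21, which couples TIM23 to the TOM complex and to respiratory chain assembly, was at 52.6, 40.9 and 47.7 FPKM in IVF, at 6.27, 8.09 and 11.2 in SCNT, and at 20.4 and 26.6 in KDM4E-SCNT. The groups were separate, and IVF exceeded SCNT by 2.36 ± 0.30 (adjusted p = 4.08e-05), or 5.14-fold. TIMM50, the receptor that hands presequences to the channel, went the other way, at 18.0, 4.78 and 8.95 FPKM in IVF, 106, 38.4 and 35.7 in SCNT, and 19.8 and 13.1 in KDM4E-SCNT (-2.38 ± 0.48, adjusted p = 0.00108). The channel TIMM23 was lower in IVF by a small margin, at 153, 172 and 133 FPKM against 299, 215 and 249.8 in SCNT (-0.73 ± 0.25, adjusted p = 0.0254). That call was lost when any of 4 libraries (IVF replicates 1 and 3, SCNT replicates 1 and 3) was left out, and under quantile normalization (adjusted p = 0.339). TIMM44, which docks the motor to the channel, was not called (-0.27 ± 0.31, adjusted p = 0.472).

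The paralogues TIMM17A and TIMM17B, alternative core subunits of TIM23, differed in opposite directions. TIMM17A was at 19.3, 23.1 and 19.4 FPKM in IVF, 11.4, 7.56 and 4.22 in SCNT, and 8.52 and 21.7 in KDM4E-SCNT (IVF minus SCNT 1.39 ± 0.40, adjusted p = 0.0101, and 0.0568 without SCNT replicate 3). TIMM17B, on chromosome X, was at 31.7, 14.2 and 23.8 FPKM in IVF, 70.8, 31.0 and 43.5 in SCNT, and 23.9 and 31.0 in KDM4E-SCNT (-1.02 ± 0.37, adjusted p = 0.0320). The TIMM17B libraries of IVF and SCNT overlapped, and its call was lost without IVF replicate 2 or 3 or SCNT replicate 1 or 3, and with no filter on low values (adjusted p = 0.0618).

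GRPEL1, the housekeeping exchange factor of mtHsp70, was higher in IVF. It lay at 302, 180.3 and 364 FPKM in IVF, at 90.7, 44.2 and 74.0 in SCNT, and at 222 and 284 in KDM4E-SCNT (2.00 ± 0.34, adjusted p = 0.000290, 4.01-fold). GRPEL2 lay at 33.3, 23.3 and 23.97 FPKM in IVF, 31.8, 51.6 and 48.3 in SCNT, and 55.4 and 27.8 in KDM4E-SCNT, and it was not called (-0.68 ± 0.33, adjusted p = 0.0973), except with median-ratio scaling (-1.11, adjusted p = 0.0155). Neither peptidase subunit was called. PMPCA, the substrate-binding subunit, was at 2.95, 0.75 and 0.35 FPKM in IVF, 0.70, 2.81 and 1.23 in SCNT, and 0.60 and 0.25 in KDM4E-SCNT, so that IVF and SCNT overlapped and both KDM4E-SCNT libraries lay below SCNT without a call. PMPCB, the catalytic subunit, was at 16.3, 40.4 and 20.6 FPKM in IVF, 23.4, 19.3 and 14.9 in SCNT, and 13.1 and 35.5 in KDM4E-SCNT.

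Of the 5 other twin CX9C genes tested, 3 were higher and 2 lower in IVF, in a comparison where 34.9% of all features were higher and 23.6% lower. CHCHD3, the MICOS subunit MIC19 that helps hold cristae junctions, was at 261, 221 and 213 FPKM in IVF, at 64.3, 58.8 and 46.3 in SCNT, and at 126 and 199 in KDM4E-SCNT (2.03 ± 0.27, adjusted p = 5.90e-05). CHCHD6, the related subunit MIC25, was also higher in IVF but low, at 3.66, 0.17 and 2.29 FPKM against 0.16, 0.16 and 0 in SCNT, with 0.99 and 2.69 in KDM4E-SCNT (1.25 ± 0.49, adjusted p = 0.0430). The CHCHD6 call was lost without IVF replicate 1 or 3, without each of the 3 SCNT replicates in turn, and under 4 other settings. CHCHD6 also failed the filter of at least 1 FPKM in every library of a group and was not tested there. Its difference was 2.83 with a pseudocount of 0.1. CHCHD1, a protein of the mitochondrial ribosome, was at 168, 208 and 211 FPKM in IVF, 117, 131 and 92.7 in SCNT, and 177 and 156 in KDM4E-SCNT (0.79 ± 0.26, adjusted p = 0.0184). Its call was lost without IVF replicate 3 or SCNT replicate 3, and with median-ratio scaling (adjusted p = 0.278).

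CHCHD7, a small intermembrane space protein, was lower in IVF at 305, 249 and 234 FPKM against 772, 1009.9 and 711 in SCNT, with 578 and 243 in KDM4E-SCNT (-1.65 ± 0.32, adjusted p = 0.000711, and -0.98 under quantile normalization). CHCHD2, linked to respiration and to inherited parkinsonism, was at 419, 270.4 and 479 FPKM in IVF, 1023, 776 and 872 in SCNT, and 619 and 418 in KDM4E-SCNT (-1.22 ± 0.28, adjusted p = 0.00237). Under quantile normalization CHCHD2 was not called (-0.53, adjusted p = 0.104). CHCHD10, the paralogue of CHCHD2, had values of 0, 0.70 and 0 FPKM in IVF, 0.44, 0.44 and 1.07 in SCNT, and 0 and 0.23 in KDM4E-SCNT.

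**Figure D2:**
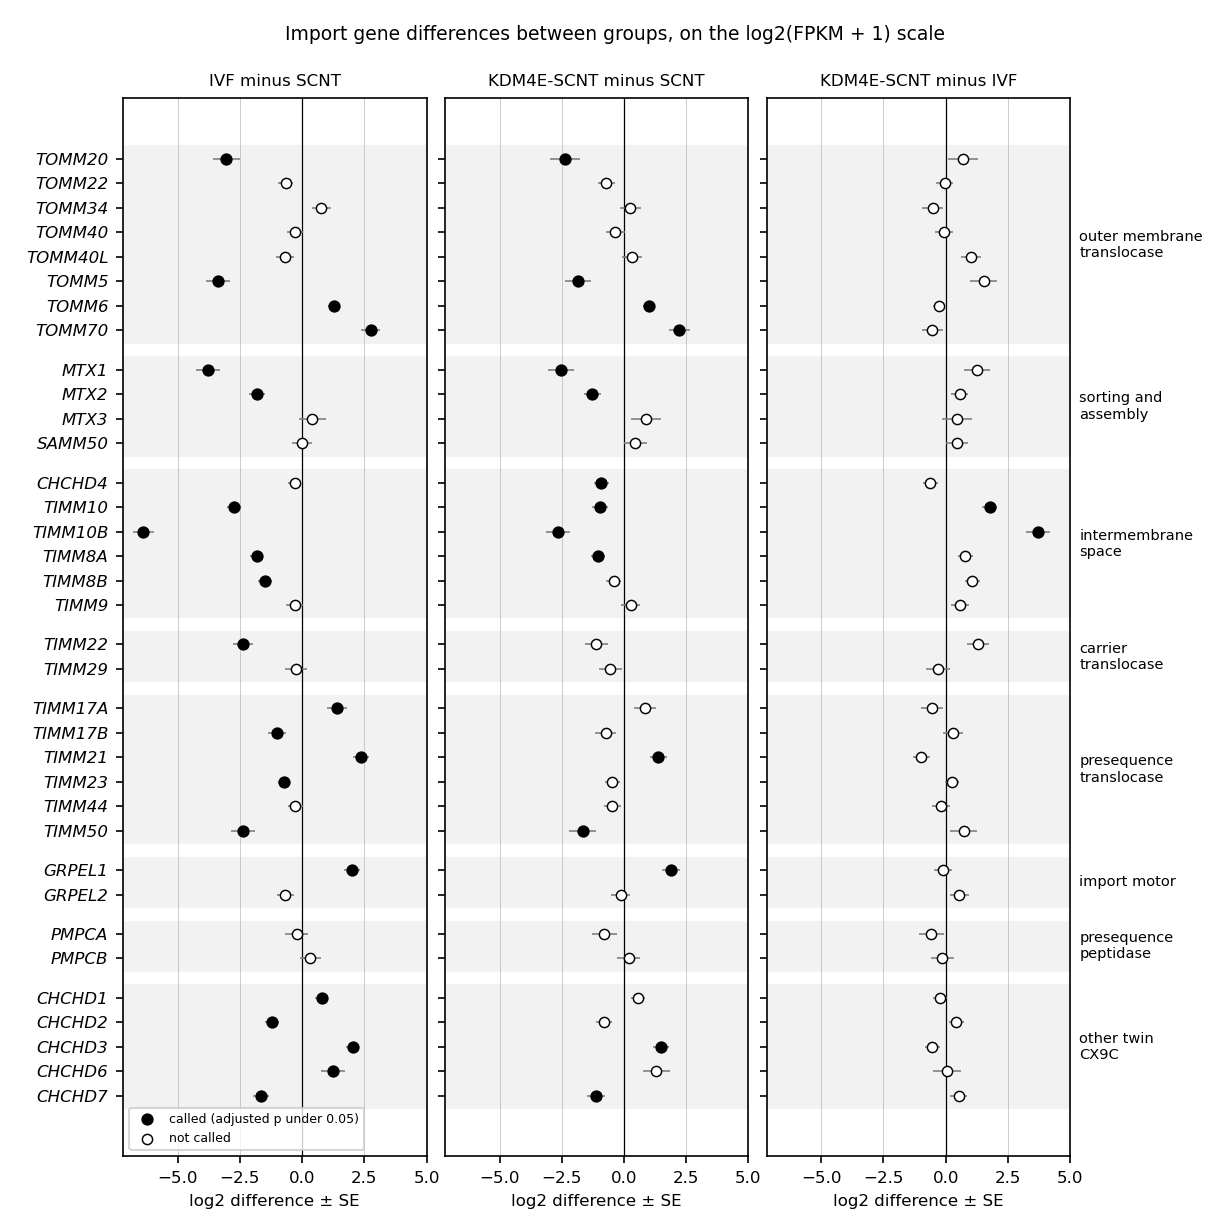
Log2 difference of FPKM + 1 for the 35 tested import genes, by role, in 1 panel for each of the 3 comparisons, with bars for the standard error, filled points for genes called at an adjusted p under 0.05 and open points for the rest. TIMM10B, at -6.38 in IVF minus SCNT, lies farthest from 0, and TOMM70, at 2.75, is the highest.

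Pairs of related genes were then set against each other within each library, since such a ratio does not depend on library scaling apart from the pseudocount. Of 7 pairs, 4 had ratios that did not overlap between IVF and SCNT. Ratios of other gene pairs were not computed, so this count has no like background. The 64.4% of single features that did not overlap is an unlike measure. The log2 ratio of TIMM17A to TIMM17B was -0.69, 0.67 and -0.29 in IVF and -2.53, -1.90 and -3.09 in SCNT. In IVF TIMM17B was thus the higher of the 2 in replicates 1 and 3 and TIMM17A in replicate 2, whereas TIMM17B predominated in every SCNT library. The ratio of TIMM10 to TIMM10B changed sign, from 2.00, 1.36 and 0.80 in IVF to -1.75, -3.05 and -2.01 in SCNT.

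The ratio of GRPEL1 to GRPEL2 was 3.14, 2.90 and 3.87 in IVF and 1.48, -0.22 and 0.61 in SCNT. That of MTX1 to MTX2 was -1.05, -2.97 and -2.29 in IVF and 0.29, -0.07 and -0.64 in SCNT. The KDM4E-SCNT libraries lay between the other groups for TIMM10 to TIMM10B, at -0.98 and -0.17. Each of these 4 differences between IVF and SCNT gave an exact two-sided permutation p = 0.1, the smallest that 3 against 3 libraries allow, and an adjusted p = 0.175 over the 7 pairs. The ratios of TIMM8A to TIMM8B, TOMM40 to TOMM40L and PMPCA to PMPCB overlapped between IVF and SCNT. Between KDM4E-SCNT and SCNT no pair could fall under p = 0.2, the smallest exact permutation p of 2 against 3 libraries.

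**Figure D3:**
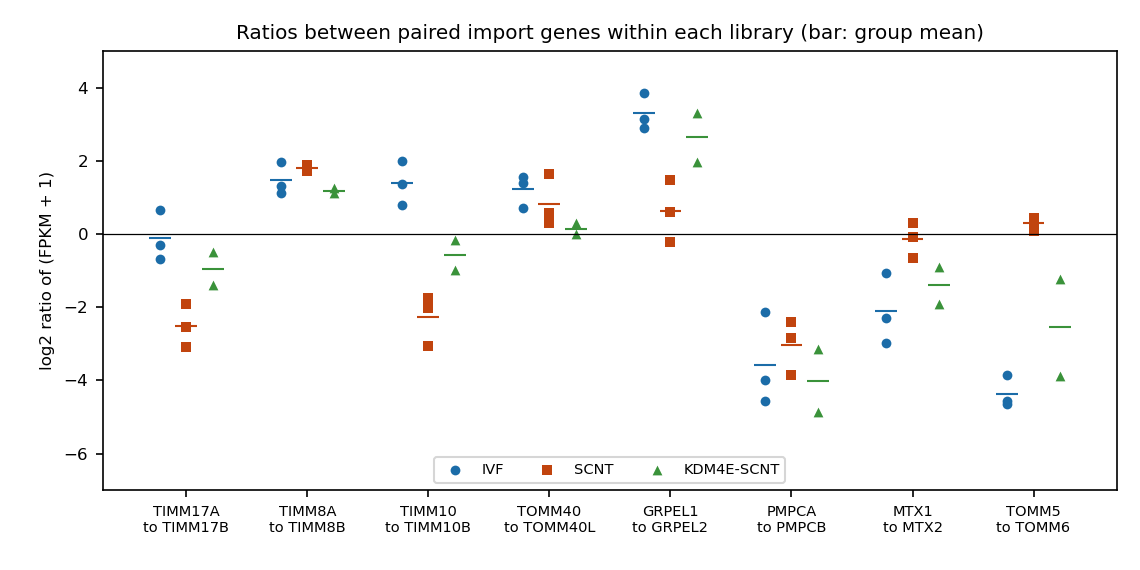
Log2 ratio of FPKM + 1 between the members of the 7 tested pairs and of TOMM5 to TOMM6, with 1 point per library coloured by group, a short bar at each group mean and a line at equal levels. The IVF and SCNT points are separate for TIMM17A to TIMM17B, TIMM10 to TIMM10B, GRPEL1 to GRPEL2 and MTX1 to MTX2, with TIMM10 to TIMM10B at 0.80 to 2.00 in IVF and -3.05 to -1.75 in SCNT.

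The second comparison, KDM4E-SCNT against SCNT, asks what differs in clones that overexpress KDM4E. The genes lower in KDM4E-SCNT were the chaperones TIMM10B, TIMM10 and TIMM8A with CHCHD4, the metaxins MTX1 and MTX2, TOMM20, TOMM5, TIMM50 and CHCHD7. The genes higher in KDM4E-SCNT were TOMM70, GRPEL1, CHCHD3, TIMM21 and TOMM6. Of 35 genes tested, 10 (28.6%) were lower and 5 (14.3%) were higher, whereas 11% of all features were lower and 21.6% were higher. The median log2 difference was -0.46 over the import genes and 0.33 over all features. Libraries did not overlap for 24 import genes (68.6%), against 59.5% of all features. With median-ratio scaling the median over all features was 0.02, 43.2% rather than 66.2% of all calls were in the higher direction, and 4 import genes were higher and 15 lower. With quantile normalization 5 were higher and 6 lower, while 2092 of all 14839 features were higher and 2108 lower. The higher direction then held 45.5% of import gene calls and 49.8% of all calls. This comparison uses the same SCNT libraries as the first, so each gene's values in the 2 comparisons are not independent.

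By role, TOMM70 was 2.22 ± 0.43 higher in log2 (SE, adjusted p = 0.00290) and GRPEL1 1.89 ± 0.38 higher (adjusted p = 0.00348). TIMM10B fell by 2.65 ± 0.48 on the log2 scale (adjusted p = 0.00216), or 6.29-fold. These 3 genes were called under each of the 15 alternative settings. TOMM6 (0.99 ± 0.24, adjusted p = 0.00920), CHCHD3 (1.49 ± 0.31, adjusted p = 0.00411) and TIMM21 (1.39 ± 0.34, adjusted p = 0.00929) completed the higher set, and the TOMM6 call was lost with median-ratio scaling (adjusted p = 0.131). MTX1 (-2.52 ± 0.53, adjusted p = 0.00457) and TOMM20 (-2.36 ± 0.61, adjusted p = 0.0115) showed the largest differences after TIMM10B in the lower direction. CHCHD4 was at 30.9 and 29.6 FPKM in KDM4E-SCNT, below the 62.4, 50.1 and 61.5 of SCNT and the 54.5, 40.2 and 47.1 of IVF. Its difference from SCNT was -0.91 ± 0.30 (adjusted p = 0.0344), and that from IVF was not called (-0.62 ± 0.30, adjusted p = 0.279). The TIM22 subunits, the peptidase subunits and GRPEL2 were not called. TIMM22 (-1.10 ± 0.45, adjusted p = 0.0745) was called lower with median-ratio scaling (-1.56), without IVF replicate 2 and without KDM4E-SCNT replicate 1 (-1.71). CHCHD2 was called lower under the same 3 alternatives, and TOMM22, TIMM23 and TIMM17B with median-ratio scaling. CHCHD6 was called higher without IVF replicate 2 and in a fit of only these 2 groups, and TIMM17A without KDM4E-SCNT replicate 1.

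The counts of this comparison depended on single libraries. Without KDM4E-SCNT replicate 2, which leaves that group 1 library, most calls were lost, both of import genes and of all features. The median log2 difference was then -0.50 over the import genes and 0.19 over all features. Without SCNT replicate 1 the calls of MTX2, TIMM50, CHCHD4, TIMM10, TOMM5 and CHCHD7 were lost (adjusted p between 0.0548 and 0.124), and 4 genes were lower. Without SCNT replicate 3 those of MTX2, CHCHD4, TIMM8A, TIMM10 and CHCHD7 were lost (between 0.0516 and 0.102), and 5 were lower. Over all features 1636 were lower in the main analysis, 997 without SCNT replicate 1 and 1043 without SCNT replicate 3. TIMM50, CHCHD4 and TIMM10 were lost without KDM4E-SCNT replicate 1 (between 0.0583 and 0.0738), TOMM5 and CHCHD7 without SCNT replicate 2 (between 0.0599 and 0.0787), and CHCHD4 without IVF replicate 3 (0.0543), which enters through the shared spread. Calls were also lost for TIMM50, TOMM5 and CHCHD7 with no filter on low values, for TIMM8A, TIMM10, TOMM5 and CHCHD7 with quantile normalization, and for TOMM5 and CHCHD7 in a fit of only these 2 groups. The KDM4E-SCNT libraries were far apart for several genes. Replicate 1 exceeded replicate 2 by 2.62 in log2 for TOMM20, 2.52 for TOMM5, 1.25 for CHCHD7, 1.21 for TIMM22 and over 1 for MTX1, and replicate 2 exceeded replicate 1 by over 1 for PMPCB, TIMM17A and SAMM50. A gap over 1 in the first direction was found for 14.3% of import genes and 8.96% of all features, and in the second for 8.57% and 12.5%. The difference of TOMM20 from SCNT was accordingly -3.67 without replicate 1 and -1.05 without replicate 2. That of TOMM5 was -3.11 and -0.58, that of MTX1 -3.13 and -1.92, and that of CHCHD7 -1.75 and -0.51, in the same order.

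**Figure D4:**
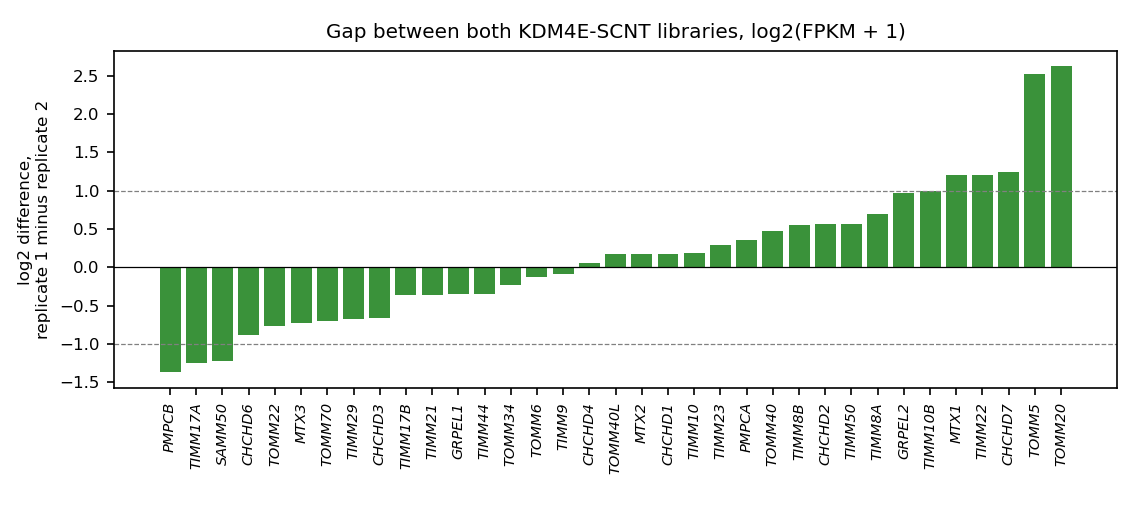
Log2 difference of FPKM + 1 between KDM4E-SCNT replicate 1 and replicate 2 for each tested import gene, ordered from the lowest to the highest, with bars from 0 and dashed lines at a gap of 1 in each direction. TOMM20, at 2.62, and TOMM5, at 2.52, stand farthest from 0, and PMPCB, at -1.37, is the lowest.

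The third comparison set KDM4E-SCNT against IVF. TIMM10B and TIMM10 were higher in KDM4E-SCNT, and the other import genes were not called. TIMM10B exceeded IVF by 3.73 ± 0.48 in log2 (SE, adjusted p = 0.000730), or 13.2-fold, and TIMM10 by 1.76 ± 0.31 (adjusted p = 0.00416), or 3.39-fold. The share called higher, 2 of 35 (5.71%), is close to the 5.9% of all features. By limma 0 genes were lower, where 0.62% of all features were. The largest difference in the lower direction, that of TIMM21, was not called (-0.98 ± 0.34, adjusted p = 0.122). Libraries did not overlap for 11 import genes (31.4%), against 33.9% of all features. The next chaperone, TIMM8B, missed the threshold (1.07 ± 0.31, adjusted p = 0.0573). The TIMM10 call was lost without KDM4E-SCNT replicate 1, and its log2 difference was 1.61 to 1.93 over the alternatives. Without replicate 2, TOMM5 (2.80), TOMM20 (2.00), TIMM22 (1.89), TIMM8B (1.35), CHCHD7 (1.14) and TIMM8A (1.13) were also called higher. More of all features were called higher then as well. The median log2 difference was 0.11 over the import genes and -0.12 over all features in that fit. Either fit leaves the KDM4E-SCNT group 1 library.

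Other genes of the pathway were followed through lists of import partners and of matrix chaperones and proteases. Of 21 import partners 17 were measured, and 8 were lower and 2 higher in IVF than in SCNT, with a median log2 difference of -0.70. These are 47.1% lower and 11.8% higher, beside 23.6% and 34.9% of all features. HSPA8, the cytosolic chaperone that delivers precursors to TOMM70, was lower in IVF (-1.63 ± 0.28, adjusted p = 0.000324), at 281, 289 and 319 FPKM against 1325, 737 and 799, with 511 and 342 in KDM4E-SCNT. The difference of HSPA8 was thus opposite in sign to that of its receptor. DNAJC19, a motor-associated J protein (-1.79 ± 0.31, adjusted p = 0.000365), and IMMP1L, a subunit of the inner membrane peptidase (-1.57 ± 0.30, adjusted p = 0.000632), were also lower in IVF. The 2 partners higher in IVF were AIFM1, which anchors CHCHD4 to the inner membrane, and MTCH2, an insertase of the outer membrane. In KDM4E-SCNT against SCNT, 4 partners (23.5%) were lower and 1 (5.88%) was higher, beside 11% and 21.6% of all features.

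All 16 matrix chaperones and proteases were measured, and 6 were higher and 3 lower in IVF than in SCNT, with a median of -0.13. Those shares, 37.5% higher and 18.75% lower, are near the 34.9% and 23.6% of all features. The protease ATP23 was at 3.02, 0.97 and 3.44 FPKM in IVF, at 201, 232 and 223 in SCNT, and at 52.7 and 29.3 in KDM4E-SCNT, with a difference of -6.07 ± 0.36 (adjusted p = 2.59e-07) between IVF and SCNT. ATP23 thus showed the same order of groups as TIMM10B. The stress-activated protease OMA1 was higher in IVF (2.76 ± 0.41, adjusted p = 0.000114), as was AFG3L2, a subunit of the matrix-facing AAA protease (1.95 ± 0.34, adjusted p = 0.000335). In KDM4E-SCNT against SCNT, 3 of this list (18.75%) were higher and 2 (12.5%) lower, near the 21.6% and 11% of all features, and against IVF 1 was higher, ATP23 (3.62 ± 0.40, adjusted p = 0.000294).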

How the data were processed

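RNA-seq of 8 libraries was used, 1 file each. Per the submitters' processing notes, the tools were bcl2fastq 2.16, HISAT 0.1.6, StringTie 1.0.4, Bowtie2 2.2.5 and RSEM 1.2.12, with cattle build UMD3.1. Their roles and settings are not given in the sources used here. The authors deposited FPKM per gene, per the file headers, to 2 decimals. FPKM corrects for transcript length and library total, so a change in a few abundant genes shifts the values of others. Depth is unknown.

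A library's group came from its label. Features with at least 1 FPKM in at least 2 libraries were kept (14839 of 21258). A single model of group means was fitted to log2(FPKM + 1) over all 8 libraries, a scale that understates changes of low genes (limma 3.58.1 in R 4.3.3, trend and robust moderation). P-values were two-sided, with Benjamini-Hochberg adjustment over all features of a comparison, and calls were made at an adjusted p under 0.05. Errors are SE for differences and SD for means. The script was tested on simulated data. Pair ratios were compared by exact permutation over libraries.

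The members and lists were chosen with earlier results of these data known. Every member may be named. Values in every library are given for up to 3 members of a role with the smallest p in IVF minus SCNT, members called against the majority direction, and both members of a pair. TOMM20, CHCHD4, TIMM9 and TIMM23 were added after their values were seen. From other lists, up to 3 genes with the smallest p are named, and AIFM1 and MTCH2 were added after their values were seen. TOMM20L was not found. Alternatives were pseudocount, filter, scaling, replicate block, fits of only 2 groups, and leaving out each library.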

Additional observations from a re-analysis of the deposited data

How the results depend on the processing

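Of 22 genes called in IVF minus SCNT, 16 were called under each of 15 alternatives. The others, TIMM23, TIMM17B, CHCHD1, CHCHD6, TIMM17A and CHCHD2, were lost under at least 1. For KDM4E-SCNT minus SCNT the number kept throughout was 3 of 15, and for KDM4E-SCNT minus IVF 1 of 2. No called difference of a gene changed sign, and the 44 sign changes seen were all in gene differences called neither in the main analysis nor under that alternative. Genes not called in the main analysis were called under at least 1 alternative in 5, 7 and 6 cases in the 3 comparisons. With libraries left out, the number of import genes higher in IVF than SCNT was 5 to 9. In KDM4E-SCNT minus SCNT it was 2 to 6 higher and 1 to 12 lower, and 6 were lower with quantile normalization. In KDM4E-SCNT minus IVF it was 1 to 8 higher. With either KDM4E-SCNT replicate left out, that group is 1 library, assumed to vary like the others. Without replicate 2, calls over all features also became fewer against SCNT and more numerous against IVF. The replicate block gave 7 higher and 14 lower, 5 and 8, and 3 and 0 in the 3 comparisons in turn, where CHCHD6, CHCHD4 and TIMM10 lost calls and TIMM22 gained one against IVF. Same-numbered libraries of different groups correlated at 0.0065 to 0.123 in their deviations from group means, and other pairs at -0.1335 to 0.1335. Deviations from a mean of 2 or 3 libraries are tied to each other, so these values cannot decide whether the numbers mark a pairing. The main analysis did not take them as one. Pair ratios, recomputed with a pseudocount of 0.1 and with each library left out, were alternatives chosen after the data were seen, and their sign changed in 3 cases, all of KDM4E-SCNT minus IVF for GRPEL1 to GRPEL2 or PMPCA to PMPCB. Depth is unknown, so no limit for genes listed at 0 can be given, and with 2 or 3 libraries a group small differences may be missed.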

Other observations

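The files hold 6 features whose descriptions name import or CHCHD proteins but whose symbols fall outside the rule. A feature on chromosome 4 described as a homologue of TOM7, a small TOM subunit, was abundant, at 224, 308 and 219 FPKM in IVF, 179.5, 158 and 133 in SCNT, and 100.5 and 223 in KDM4E-SCNT. It was not called between IVF and SCNT (log2 difference 0.67 ± 0.32, SE, limma adjusted p = 0.0847). TIMMDC1, an assembly factor of respiratory complex I, was at 3.94, 6.97 and 6.59 FPKM in IVF, 29.7, 26.1 and 43.2 in SCNT, and 14.4 and 14.1 in KDM4E-SCNT. It was lower than SCNT both in IVF (-2.31 ± 0.32, adjusted p = 7.60e-05) and in KDM4E-SCNT (-1.12 ± 0.36, adjusted p = 0.0320). A CHCHD5-like feature on chromosome 11 lay at 4.05, 8.31 and 6.36 FPKM in IVF, 32.6, 29.99 and 37.9 in SCNT, and 15.6 and 8.66 in KDM4E-SCNT, and was lower in IVF than in SCNT (-2.29 ± 0.34, adjusted p = 0.000117), as it was in KDM4E-SCNT (-1.44 ± 0.38, adjusted p = 0.0132). A second CHCHD5 feature, on chromosome 22, ranged from 0 to 14.6 FPKM and was lower in IVF than in SCNT (-1.88 ± 0.71, adjusted p = 0.0383). A feature on chromosome 5 described as a TOM6 homologue stayed between 0 and 2.51 FPKM and was higher in KDM4E-SCNT than in SCNT (1.56 ± 0.41, adjusted p = 0.0121). A second TOM7 feature, on chromosome 9, was listed at 2.21 FPKM in SCNT replicate 2 and at 0 elsewhere, and was not tested. These features were picked by description after the files were read.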
